A study of Mus musculus with 10 samples.

Results

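Sonication breaks fixed chromatin into fragments small enough to be immunoprecipitated, and its length was one of the settings varied in this series. The comparison described here sets 40 min of sonication against 5 min, both after homogenization at 50 °C. Its subject is the H3K27Ac sites that were listed after 40 min and had no counterpart after 5 min. A site is a stretch of chromosome 1 to 19 (mouse build mm9) formed by joining the authors' peaks across gaps of up to 76 bp. A site of the 40 min list was called 40-min-only when no site of the 5 min list overlapped it by at least 1 bp, and shared otherwise. By this rule 34383 of the 57298 sites after 40 min were 40-min-only, 60% of the list, and 22915 were shared. The number depends on how sites are drawn, with 16690 when gaps of up to 500 bp are closed and 17944 when the 40 min list is shortened to the length of the other. The series as a whole holds 325218 such sites in 9 lists, of which these 2 lists contribute 95303.

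H3K27Ac is acetylation of a lysine in the tail of histone H3, placed by the acetyltransferases p300 and CBP and removed by histone deacetylases. It marks promoters and enhancers in use, and in liver it covers the regulatory regions of genes that hepatocytes transcribe strongly. Clusters of closely spaced H3K27Ac sites, often called super-enhancers, lie around genes that define the identity of a cell. In archived tissue, formaldehyde cross-links and paraffin limit how much chromatin can be brought into solution.

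All libraries came from full sections of normal mouse liver, and nothing was said of strain, age or sex in the sources used here. In FiTAc-seq, sections of formalin-fixed, paraffin-embedded (FFPE) liver were freed of paraffin, heated overnight in a detergent buffer at 50, 65 or 80 °C, sonicated for 5 or 40 min and immunoprecipitated with an H3K27Ac antibody by a protocol for small amounts. The groups used here are 50 °C with 5 min (1 library), 50 °C with 40 min (1 library), 65 °C with 5 min (2 libraries), 65 °C with 40 min (1 library) and 80 °C with 40 min (1 library). Beside these stand an H3K27Ac library of fresh frozen liver, cross-linked with formaldehyde after freezing, and FFPE libraries of H3K4me2 and H3K27Ac made by FiT-seq, a related protocol that used proteinase K in place of overnight heat. H3K4me2 is dimethylation of another histone H3 lysine, found at promoters and at enhancers both active and poised.

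Each 50 °C condition was 1 library, so sonication time was not tested at 50 °C and the values below describe these libraries. Intervals are Wilson 95% intervals and cover counting error only, since neighbouring sites are not independent and read depth is unknown. The only repeated condition was 65 °C with 5 min, and nothing says that its 2 libraries came from separate animals or blocks. As deposited, neighbouring peaks could lie 36 bp apart in the 50 °C and 65 °C lists of 40 min, whereas the smallest gap in each list of 5 min was 76 bp. Closing gaps joined 7167 peaks in the 50 °C, 40 min list and 94 in the 5 min list. What made the lists differ in this way cannot be told apart from sonication time. In sections of whole liver, fewer cells of a type and less signal per cell cannot be told apart either, and it is not stated whether fresh frozen and FFPE liver came from the same animals. The labels name 2 library kits without saying which library had which.

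After closing gaps, the 50 °C list held 38005 sites after 5 min and 57298 after 40 min. The sites of 5 min covered 17.1 Mb and those of 40 min 36.3 Mb. Of the bases listed after 5 min, 82.4% were listed again after 40 min. Of the bases listed after 40 min, 38.7% had been listed after 5 min. The 40-min-only sites held 11.9 Mb, and a further 10.4 Mb lay in shared sites, outside the stretch that the 5 min list covered. The longer sonication list thus exceeded the shorter one in both ways, by separate sites and by wider shared sites.

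The shared sites were wider in the 40 min list. Their median width was 770 bp, and the highest 5 min site under each had a median width of 388 bp. The 40 min site was the wider of the 2 in 78.0% of cases, and the 5 min sites covered a median of 58.5% of its length. In 28.6% of cases 1 shared site met 2 or more 5 min sites. Over the 22915 shared sites the −log10 q-values of both lists had a Spearman's rho of 0.56, given as a description across sites that share their libraries.

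In the other direction the share was smaller. Of the 38005 sites after 5 min, 6723 had no 40 min site (5-min-only, 17.7% of the list). The share without a counterpart was thus 60% in one direction and 17.7% in the other, in lists of unequal length.

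The corresponding shares at 65 °C were lower in the direction from 40 to 5 min. Of the 65 °C, 40 min sites, 22.6% had no site in the first library of 5 min and 26.3% had none in the second. In the other direction they were higher than at 50 °C, since 38.9% and 34.3% of the sites of the 65 °C, 5 min libraries had no 65 °C, 40 min site. At 65 °C the larger share was thus on the side of 5 min. Within the replicate pair at 65 °C, 32.5% of the first library's 59237 sites had none in the second, and 23% of the second library's 55670 had none in the first. The share of 60% at 50 °C was above both shares of this pair, whose lists were closer in length than the 50 °C lists. With the 40 min list shortened to the length of the 5 min list it was 47.2%. A single pair does not give the spread of such shares. A share near 60% was not particular to the 40 min list, however. Of the sites of the 65 °C, 5 min libraries, 64.1% (63.7 to 64.5) and 60.9% (60.5 to 61.3) also had no site in the 50 °C, 5 min list. Of the 50 °C, 40 min sites, 25.1% (24.7 to 25.4) had none in the 65 °C, 40 min list.

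The 40-min-only sites sat low in their own list. Each peak carries a value from the authors, read here as the −log10 q-value, a score of how unlikely its read pile-up is against the background. Sites were ranked by the highest value among their peaks. Tied sites share the better rank, and the 57298 sites had 924 distinct values. The median 40-min-only site lay at 62.5% of the way down the list and the median shared site at 22.8%. The median −log10 q-values were 7.19 and 19.7. Of the 40-min-only sites, 66.0% ranked beyond 30000, against 19.7% of the shared sites.

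The share of 40-min-only sites rose at each step down the ranks. Among the sites ranked up to 1000, 1 was 40-min-only. Between ranks 1000 and 5000 the share was 2.28% (1.87 to 2.79), and between 5000 and 10000 it was 12.4% (11.5 to 13.3). Between 10000 and 20000 it was 43.8% (42.9 to 44.8). It reached 68.1% (67.2 to 69.1) between 20000 and 30000 and 83.4% (83.0 to 83.8) beyond. The highest-ranked H3K27Ac sites of the 40 min list were therefore nearly all listed after 5 min as well. In the 65 °C, 5 min pair none of the first 5000 ranks of either library lacked a site in the other, whereas 93 of the 5030 sites ranked up to 5000 at 50 °C and 40 min lacked a 5 min site. Of the 65 °C, 40 min sites ranked up to 5000, 3 lacked a site in each 65 °C library of 5 min. In the 65 °C, 5 min libraries, 24 of 5173 and 31 of 5008 sites ranked that high lacked a 50 °C, 5 min site. The 50 °C, 5 min list was shorter than the 65 °C lists, with 38005 sites.

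The median place of shared sites in the 5 min list moved down with each step down the 40 min ranks. Over single sites the order was looser, with the Spearman's rho of 0.56 given above. Shared sites ranked up to 1000 after 40 min lay at a median of 3.01% of the way down the 5 min list. The median was 11.9% for those between ranks 1000 and 5000, 26.3% up to 10000, 43.5% up to 20000, 50.3% up to 30000 and 58.6% beyond.

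**Figure D1:**
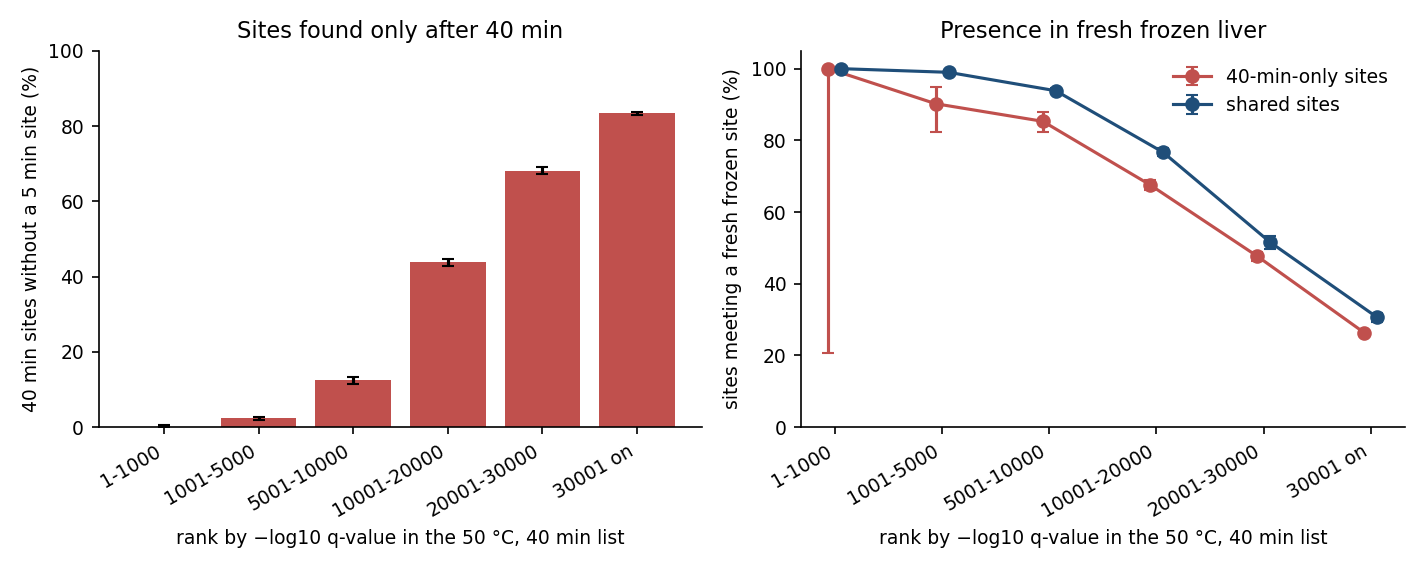
Left, bars give the share (%) of 50 °C, 40 min sites without a 50 °C, 5 min site, by rank in the 40 min list; right, points give the share (%) of 40-min-only and shared sites that meet a fresh frozen site, in the same rank bins. Error bars are Wilson 95% intervals; the left share climbs from 0.0999% to 83.4%, and the points on the right lie 3.90 to 9.12 points apart beyond rank 1000, the first 40-min-only point resting on 1 site.

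The 40-min-only sites were narrow. Their median width was 252 bp, with the middle 50% between 177 and 408 bp, and 34.3% were under 200 bp. The shared sites had a median of 770 bp, with the middle 50% between 418 and 1372 bp, and 6.93% were under 200 bp. The narrowest sites of every list measured 146 bp. Of the 40-min-only sites, 5.99% were 800 bp or wider, against 48.4% of the shared sites.

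By width, the share of 40-min-only sites was 88.1% (87.6 to 88.7) under 200 bp, 78.3% (77.7 to 78.9) from 200 to under 400 bp and 51.5% (50.6 to 52.3) from 400 to under 800 bp. It was 21.7% (20.8 to 22.6) from 800 to under 1600 bp and 5.04% (4.45 to 5.70) from 1600 bp on. Rank and width go together, since narrow sites tend to have low values. At like rank the 40-min-only sites were still the narrower. Between ranks 10000 and 20000 their median width was 539 bp, against 752 bp for shared sites, and beyond 30000 it was 201 bp against 259 bp. Among 40-min-only sites 2137, or 6.22%, had been joined from 2 or more peaks, against 18.0% of the shared sites.

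**Figure D2:**
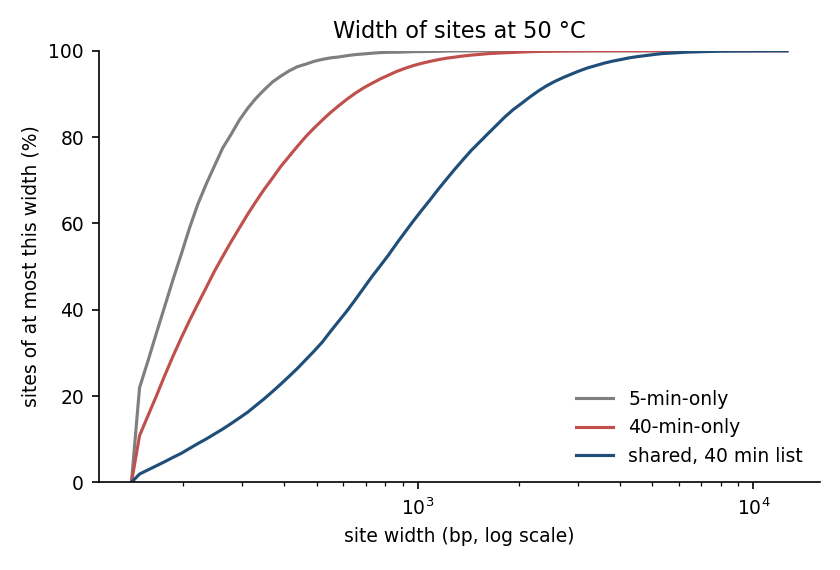
Cumulative share (%) of sites up to each width (bp, log axis) for 5-min-only sites, 40-min-only sites and shared sites as delimited in the 40 min list. The curves cross 50% at 192, 252 and 770 bp, so both kinds of unshared site were narrower than shared ones.

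The rule turns on a single base of overlap. The 738 shared sites that overlapped a 5 min site by 50 bp or less were a median of 243 bp wide, with 6.87 as the median −log10 q-value. The 636 40-min-only sites with a 5 min site within 50 bp had a median width of 249 bp and the same median value of 6.87.

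In fresh frozen liver, 12769 of the 34383 40-min-only sites met an H3K27Ac site, or 37.1% (36.6 to 37.6). The share over all sites of the 40 min list was 51.3%, and among the shared sites it was 72.6% (72.0 to 73.2). At like rank the gap was smaller. Beyond rank 30000 the shares were 26.3% (25.7 to 26.9) for 40-min-only and 30.6% (29.3 to 31.9) for shared sites. Between 20000 and 30000 they were 47.7% (46.4 to 48.9) and 51.6% (49.8 to 53.4), and between 10000 and 20000 they were 67.6% (66.2 to 68.9) and 76.7% (75.6 to 77.7). Between 5000 and 10000 they were 85.3% (82.3 to 87.9) and 93.8% (93.1 to 94.5). In these 4 bins and between ranks 1000 and 5000 the share was lower for 40-min-only sites by 3.90 to 9.12 percentage points, where the difference over all ranks was 35.5.

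Within a width class the same order held, with differences of 3.22 to 17.0 percentage points. Of the 40-min-only sites of 400 to under 800 bp, 55.9% (54.7 to 57.1) met a fresh frozen site, against 72.2% (71.1 to 73.3) of the shared ones. Under 200 bp the shares were 21.4% (20.7 to 22.2) and 24.7% (22.6 to 26.8), and from 1600 bp on they were 81.2% (75.7 to 85.6) and 93.7% (92.9 to 94.3).

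The 40-min-only sites that met fresh frozen liver were the higher and wider ones. Their median width was 343 bp, against 219 bp for those that did not, and their median −log10 q-value 9.28 against 6.19. The highest fresh frozen site under each was of middle rank, with a median of 51.3% of the way down that list and a median width of 349 bp. Under shared sites the medians were 22.3% and 550 bp. Of the 12769 40-min-only sites that met fresh frozen liver, 2.87% met one of that library's sites ranked up to 5000, against 27.5% of the 16638 shared sites that met fresh frozen liver.

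Seen from the fresh frozen list, 14515 of its 47189 sites met the 40 min and not the 5 min list, or 30.8%. Both lists met 20217 sites (42.8%), only the 5 min list met 627 (1.33%), and 11830 (25.1%) met neither. The 14515 had a median width of 318 bp, between the 507 bp of sites met by both and the 229 bp of sites met by neither. Of the 14515, 85.9% were met by a 40-min-only site alone, and 14.1% lay in a shared site at a place that the 5 min list did not reach. The gain depended on the rank in fresh frozen liver. It was 1.50% up to rank 1000, 8.03% from there to 5000, 21.4% to 10000, 35.9% to 20000, 39.5% to 30000 and 32.4% beyond. Beyond rank 30000 another 45.9% met neither list.

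Most 40-min-only sites were listed in another FFPE library. The first and second 65 °C, 5 min libraries met 62.8% (62.3 to 63.3) and 57.1% (56.5 to 57.6) of them, and the 65 °C, 40 min library met 63.0% (62.5 to 63.5). Over all sites of the 50 °C, 40 min list these shares were 76.6%, 72.7% and 74.9%, and among its shared sites 97.3%, 96.1% and 92.8%. For sites absent after 5 min at 50 °C, the share listed at 65 °C and 40 min was thus close to that in the first 65 °C, 5 min library and above that in the second.

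Both 65 °C, 5 min libraries listed 16456 of the 40-min-only sites, or 47.9% (47.3 to 48.4), where the share over all 40 min sites was 66.6%. At least 1 of the 3 lists at 65 °C met 82.1% (81.7 to 82.5), against 89% of all 40 min sites. The 65 °C, 40 min list met 3470 (10.1%) that neither 65 °C, 5 min library had, against 6.28% of all 40 min sites, so that these sites were listed after 40 min at 50 and 65 °C and in no FiTAc-seq library of 5 min. Their median width was 231 bp. At the other end, 13591 (39.5%) were present in all 3 lists at 65 °C, against 59.7% of all 40 min sites, with a median width of 402 bp.

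Presence at 65 °C also followed rank. Of the 40-min-only sites between ranks 10000 and 20000, 91.8% and 89.5% were met by the 65 °C, 5 min pair and 97.5% by 65 °C with 40 min. Beyond rank 30000 these shares were 51.8%, 45.0% and 49.0%. Among shared sites they were 99.7%, 99.2% and 99.3% between ranks 10000 and 20000, and 88.5%, 84.5% and 69.4% beyond 30000. At like rank the 40-min-only sites were thus still met less often.

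Neither fresh frozen liver nor a 65 °C list met 5110 of the 40-min-only sites (14.9%), and 5070 (14.7%) were in no other list of the series. These 5070 were a median of 174 bp wide, and their median −log10 q-value of 5.23 placed the median at 81.9% of the way down the list. They were 8.85% of the whole 40 min list. The corresponding share was 4.56% for the 50 °C, 5 min list, 17.0% and 11.8% for the 65 °C, 5 min pair and 7.97% for 65 °C with 40 min.

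The H3K4me2 list met 1816 40-min-only sites, or 5.28% (5.05 to 5.52), and 24.4% of the shared sites, where the share over all 40 min sites was 12.9%. At like rank the H3K4me2 shares still stood apart. Between ranks 10000 and 20000 they were 10.4% and 23.1%, and between 5000 and 10000 they were 14.5% and 35.3%. The FiT-seq H3K27Ac list, of 112 sites, met 1 of the 34383, where its share over all 40 min sites was 0.00873%. The list of 80 °C with 40 min, of 55 sites, met 0 of the 34383, with an upper Wilson limit of 0.0112%. It met 45 of all 40 min sites (0.0785%), each of them a shared site.

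**Figure D3:**
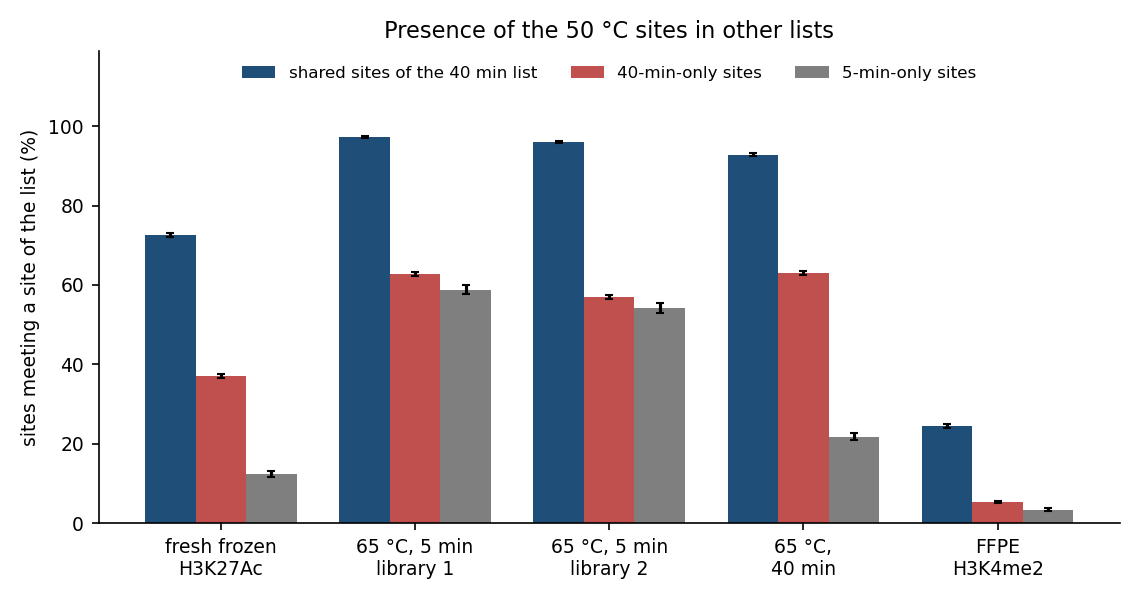
Share (%) of shared sites, 40-min-only sites and 5-min-only sites of the 50 °C lists that meet a site of 5 other lists (horizontal axis), with Wilson 95% intervals. The 40-min-only bars at 65 °C stand between 57.1% and 63.0% for both sonication times, whereas the 5-min-only bars fall from 58.8% and 54.2% in the 65 °C, 5 min pair to 21.8% at 65 °C and 40 min.

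Sites listed after 5 min alone had another profile. Their median width was 192 bp, and fresh frozen liver met 12.3% (11.5 to 13.1) of them, where 55.6% of all 5 min sites were met. The 65 °C, 5 min libraries met 58.8% (57.6 to 60.0) and 54.2% (53.0 to 55.3), and the 65 °C, 40 min library met 21.8% (20.8 to 22.8). Over all 5 min sites these shares were 90.4%, 88.6% and 80.4%. Both libraries of 65 °C and 5 min listed 1847 of them (27.5%) that 65 °C with 40 min did not, and the reverse held for 156 (2.32%). Over all 5 min sites these shares were 8.68% and 0.874%. The 65 °C, 5 min libraries also covered more of the genome, with 43.7 and 39.7 Mb against 34.6 Mb at 65 °C and 40 min, and how much of the difference goes with this was not tested.

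The 40-min-only sites lay closer to one another than to shared sites. The median distance from a 40-min-only site to the next one was 580 bp, and to the nearest shared site it was 4433 bp. Shared sites had their next shared site at a median of 403 bp. There were 34383 40-min-only and 22915 shared sites, and how far these counts set the distances was not tested. Of the 40-min-only sites, 24.6% lay within 500 bp of a shared site, 51.6% within 5000 bp and 65.4% (64.9 to 65.9) within 12.5 kb, a distance often used to join enhancers into clusters. For shared sites the share with another shared site within 12.5 kb was 78.1% (77.5 to 78.6).

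Joined at gaps of up to 12.5 kb, the sites of the 40 min list formed 14840 groups. In 6261 of them (42.2%) shared and 40-min-only sites stood together, and these held 69.7% of the 40-min-only sites. Another 5417 groups (36.5%) held 40-min-only sites alone, with 10435 sites in all, and 2940 of these were a single site. The largest group without a shared site had 21 sites. Groups with 1 shared site had 1.36 40-min-only sites on average, and groups with 10 or more shared sites had 11.6, or 0.83 per shared site. Of the 230 groups with 10 or more shared sites, 2 had no 40-min-only site. The 40-min-only sites thus stood both beside shared sites and in groups without one.

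Counted along the chromosome, the 34383 sites formed 16808 runs with no shared site between them and neighbours within 12.5 kb. Runs of 1 site held 26.2% of the sites, runs of 2 held 21.8%, and the 132 runs of 10 or more held 4.67%. The share of 40-min-only sites differed among chromosomes. It ranged from 53.3% on chromosome 11 and 55.3% on chromosome 17 to 65.6% on chromosome 13 and 66.2% on chromosome 18.

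Presence in fresh frozen liver went with where a 40-min-only site lay, in classes of distance chosen after the data were seen. Of those within 1000 bp of a shared site, 25.5% (24.7 to 26.4) met a fresh frozen site, and of those farther, up to 5000 bp, 16.6% (15.8 to 17.5). The share was 45.2% (43.8 to 46.6) from there to 12.5 kb, 53.3% (52.1 to 54.5) up to 50000 bp and 60.0% (58.7 to 61.3) beyond. Median widths in these 5 classes were 243 to 262 bp and median −log10 q-values 6.62 to 7.19, so the classes were alike in both. The 40-min-only sites more than 5000 bp from a shared site were therefore found in fresh frozen liver more often than those nearer to one.

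Beyond rank 10000 the same order was seen within each rank bin. Between ranks 20000 and 30000 the shares were 30.9% within 1000 bp, 25.2% from there to 5000 bp and 74.7% beyond 50000 bp. Beyond rank 30000 they were 14.8%, 8.23% and 48.9%. Between ranks 5000 and 10000 the first step went the other way, with 75.0% within 1000 bp (n = 248), 82.6% up to 5000 bp (n = 92) and 95.7% beyond 50000 bp (n = 94). H3K4me2 followed fresh frozen liver, with 4.67%, 1.10%, 4.03%, 7.86% and 9.82% from the nearest class to the farthest. The 65 °C, 5 min libraries went the other way, with 77.4% and 72.3% of the sites within 1000 bp and 54.5% and 48.1% of those beyond 50000 bp. For 65 °C with 40 min the shares fell from 68.4% to 57.9% and then climbed through 59.8% and 61.6% to 62.8%.

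Flanking sites that met no fresh frozen site were seldom far from one. Of the 8187 within 1000 bp of a shared site, 93.8% had a fresh frozen site within 5000 bp, at a median of 794 bp for all 8187. Over all 40-min-only sites, those that met one included, 87.7% had a fresh frozen site within 5000 bp. Among unmet sites the share was 88.5% for those 1000 to 5000 bp from a shared site. In the farther classes it was 58.7%, 62.7% and 59.8%. Nearness to a fresh frozen site was partly set by the choice of class, since 72.6% of shared sites met one.

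Presence in fresh frozen liver went with distance to a shared site also where sonication time did not differ. Among sites of the first 65 °C, 5 min library without a site in the second, fresh frozen liver met 11.0% within 1000 bp of a shared site, 7.02% from there to 5000 bp and 42.9% beyond 50000 bp. The shares in the reverse direction were 10.8%, 6.29% and 40.4%. Of the 40-min-only sites at 50 °C, 15.3% lay beyond 50000 bp of a shared site, against 5.63% in both directions of the pair. For 65 °C with 40 min against the 5 min libraries, 8.26% and 8.48% lay that far, and fresh frozen liver met 49.0% and 51.4% of these. The 50 °C comparison also had fewer shared sites to lie near, 22915 against 39962 and 42892 in the pair, and the part of this in its larger share of distant sites was not tested.

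**Figure D4:**
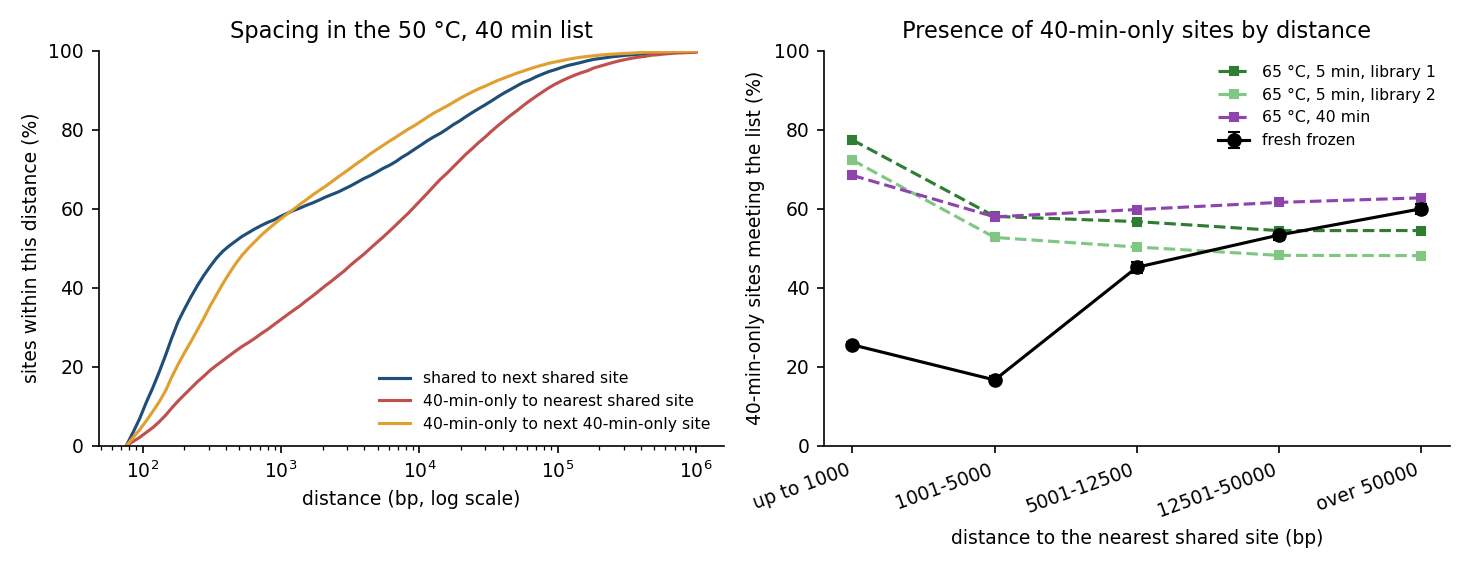
Left, cumulative share (%) of sites within each distance (bp, log axis) for 3 kinds of neighbour in the 50 °C, 40 min list; right, share (%) of 40-min-only sites that meet fresh frozen liver (with Wilson 95% intervals) or each 65 °C list, by distance to the nearest shared site. The fresh frozen line falls from 25.5% to 16.6% and then climbs to 60.0%, while both 65 °C, 5 min lines drop from 77.4% and 72.3% to 54.5% and 48.1%.

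The longest run of 40-min-only sites had 25 sites over 37.5 kb, at chromosome 3, 82814389 to 82851890. Its sites were 146 to 1099 bp wide, with a median of 228 bp, and ranked from 6733 to 54305 after 40 min. The 5 min list had 0 sites in this stretch. Fresh frozen liver had 6, which met 6 of the 25. The 65 °C, 5 min libraries met 23 and 19 of the 25, and 65 °C with 40 min met 22. H3K4me2 had no site there. The run was thus present in each library at 65 °C and absent from the 50 °C, 5 min list.

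The other long runs differed in this respect. The second had 22 sites at chromosome 17, 74162870 to 74203111, of which the 65 °C, 5 min libraries met 9 and 10 and the 65 °C, 40 min library 10. The third had 21 sites at chromosome 7, 27900736 to 27927170, of which 14, 10 and 17 were met in the same order. A run of 20 sites on chromosome 18 reached across 17.2 kb, with 5 and 6 sites met by the 65 °C, 5 min pair and 16 by 65 °C with 40 min. The last, 20 sites at chromosome 5, 122165729 to 122193631, had 3 sites of the 5 min list lying between its own, and 9, 8 and 9 of its sites were met at 65 °C. Fresh frozen liver met 2 to 5 sites in each of these 4 runs.

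**Figure D5:**
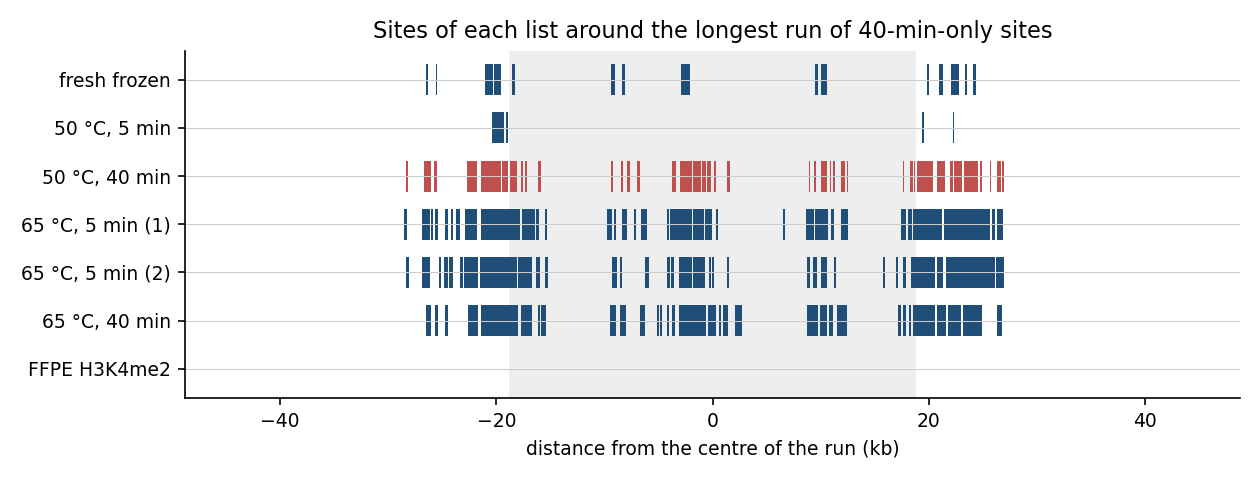
Sites of 7 lists (rows) as blocks around the longest run of 40-min-only sites, by distance (kb) from its centre, with the run shaded. The 50 °C, 5 min row is empty across the shaded 37.5 kb, where the 50 °C, 40 min row (red) has 25 sites and fresh frozen liver has 6.

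Among single sites, the highest 40-min-only site lay at chromosome 11, 75234168 to 75236508. It was 2341 bp wide, ranked 947 after 40 min with a −log10 q-value of 70.7, and the nearest 5 min site was 14207 bp away. It was also listed in fresh frozen liver (rank 11335), in the 65 °C, 5 min libraries (6729 and 9447) and at 65 °C with 40 min (4243). Of the 10 highest 40-min-only sites, 8 met a site in fresh frozen liver and in all 3 lists at 65 °C. None met an H3K4me2 site.

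These 8 sites were 1155 to 2865 bp wide. That at chromosome 5, 128112567 to 128113740, ranked 1381 after 40 min and 1361 in fresh frozen liver. The one at chromosome 2, 103554281 to 103556013, ranked 1418 and 5331. The site at chromosome 15, 39686118 to 39688982, was the most isolated of the 8, with no 5 min site within 41272 bp, and ranked 1628 after 40 min and 5946 in fresh frozen liver. At chromosome 19, 25455966 to 25458290, the ranks were 1935 and 6193. By contrast, chromosome 5, 113568578 to 113570115, ranked 2083 after 40 min and 27398 in fresh frozen liver, but 283 and 1255 in the 65 °C, 5 min pair and 91 at 65 °C with 40 min. The 65 °C sites with these ranks were 4982, 4980 and 5662 bp wide, against 1538 bp for this 40-min-only site, so the ranks describe wider stretches. This site lay 276 bp from a 5 min site and 79 bp from a shared 40 min site. The remaining 2 of the 8 lay at chromosome 1, 132659816 to 132660970, and chromosome 11, 102003413 to 102005333, tied at rank 1967.

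The other 2 of the 10 stood apart from every list. They lay on chromosome 10, at 5348498 to 5348806 (309 bp, −log10 q-value 65.5, rank 1378) and at 5633621 to 5634118 (498 bp, 57.8, rank 1967). No other list had a site at either, and the nearest 5 min sites were 372496 and 87184 bp away. Of the 5070 sites in no other list, these were the only 2 ranked among the first 5000, and the next ranked 13456. Between them lay 3 more such sites, named here after their values were seen, at 5407124 to 5407378, 5489365 to 5489594 and 5599698 to 5599951. The 5 sites span 286 kb and are 230 to 498 bp wide, against a median of 2381 bp for all 40 min sites ranked up to 1000 and 1584 bp from there to 5000. The same stretch held 2 other sites of the 40 min list, 4 fresh frozen sites, 1 H3K4me2 site, 2 sites in each 65 °C, 5 min library, and 0 sites at 50 °C with 5 min or 65 °C with 40 min. The value of these 2 sites therefore rests on this 1 library.

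After these 2, the highest 40-min-only sites without a fresh frozen site lay within 868 bp of one. At chromosome 1, 194979282 to 194980967 (1686 bp, rank 3511), it was 723 bp away, at chromosome 4, 61190244 to 61190690 (447 bp, rank 3877), 868 bp, and at chromosome 12, 58641877 to 58645247 (3371 bp, rank 3878), 231 bp. The 65 °C lists had a site at each of the 3. The widest 40-min-only site measured 3817 bp, at chromosome 16, 24087248 to 24091064, and ranked 7006. Next were chromosome 2, 172968567 to 172972377 (3811 bp), chromosome 9, 121822313 to 121825918 (3606 bp), chromosome 5, 8897474 to 8900996 (3523 bp), and chromosome 12, 106093572 to 106096999 (3428 bp). All 5 were present in the 3 lists at 65 °C, and 4 met fresh frozen liver. Wide sites were generally found in these lists. Over all 40 min sites of 1600 bp or wider, the shares at 65 °C were 99.9%, 99.9% and 100%. In fresh frozen liver the share was 93.0%, and 81.2% for the 40-min-only sites of that width. The chromosome 2 site ranked 5544 after 40 min and 1855, 2434 and 1123 at 65 °C, and a shared 40 min site lay 184 bp from it. The 65 °C sites with these ranks were 7265, 7193 and 3935 bp wide.

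The highest fresh frozen sites met after 40 and not after 5 min were chromosome 8 at 19892468 to 19893038 (fresh frozen rank 92), chromosome 5 at 150480733 to 150481114 (rank 176), chromosome 4 at 118781395 to 118781784 (rank 317), chromosome 2 at 34262364 to 34262828 (rank 548) and chromosome 15 at 75921349 to 75922046 (rank 625). They were 382 to 698 bp wide. Their ranks after 40 min at 50 °C were 15612, 4094, 8053, 3250 and 10136. Each was also listed in all 3 libraries at 65 °C. Of all 14515 fresh frozen sites met after 40 and not after 5 min, the 65 °C, 5 min libraries met 78.5% and 74.2%. The 65 °C, 40 min library met 84.0%. The chromosome 2 site lay within a shared 40 min site, at a place 194 bp from the nearest 5 min site.

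The reverse case held the 2 highest fresh frozen sites. The 5 highest met after 5 and not after 40 min were chromosome 9 at 35112716 to 35113188 (fresh frozen rank 1), chromosome 1 at 197067691 to 197068169 (rank 2), chromosome 19 at 61275499 to 61275853 (rank 4), chromosome 9 at 2999961 to 3000678 (rank 15) and chromosome 2 at 98502366 to 98503149 (rank 29). Their ranks after 5 min at 50 °C were 5223, 8109, 10491, 26753 and 4949. All 5 were also listed in the 3 libraries at 65 °C, for H3K4me2 (ranks 1, 4, 9, 14 and 23) and for FiT-seq H3K27Ac (35, 40, 59, 57 and 34). Of the long lists the 50 °C, 40 min list was the only one without them. Whether reads pile up there without any antibody was not tested. Of all 627 fresh frozen sites met after 5 and not after 40 min, the 65 °C, 5 min libraries met 80.7% and 72.9%. The 65 °C, 40 min library met 38.3% and the H3K4me2 list 12.9%.

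The highest 5-min-only sites lay on chromosome 14 at 71029468 to 71029794 and on chromosome 6 at 10136298 to 10136531, tied at rank 1699 after 5 min. Behind them came chromosome 2 at 125973521 to 125973743 (rank 1962), chromosome 15 at 84571583 to 84572783 (rank 1986) and chromosome 5 at 114623010 to 114623268 (rank 2120). None of the 5 met a fresh frozen site. Both 65 °C, 5 min libraries listed all 5, and 65 °C with 40 min listed the chromosome 2 and chromosome 5 sites. The FiT-seq H3K27Ac list, which had 112 sites in all, held those on chromosomes 6, 2 and 5, as did the H3K4me2 list. In total 23 of the 6723 5-min-only sites (0.342%) met a FiT-seq H3K27Ac site, against 4 of the 31282 shared sites of the 5 min list. Over all 38005 sites of the 5 min list it was 27 (0.0710%).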

How the data were processed

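Alignment was by BWA to mm9 and peak calling by MACS2, per the submitters' processing notes. Tool versions, calling thresholds and any control library are not given in the sources used here. The authors deposited 1 peak list per library of 5 columns (chromosome, start, end, name, value). The last column, a value the authors deposited with each called peak, was read as the −log10 of the MACS2 q-value, since the values in the long lists start close above 2. Such values scale with depth, which is unknown, so they were used to rank sites inside one list. One alternative also set the same minimum value for both 50 °C lists, although their depths may differ.

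Peaks on chromosomes 1 to 19 were kept. The FFPE input library was not analysed here. Gaps of 76 bp or less were closed in all lists, and a joined site took its highest value. Sites were shared at 1 bp of overlap. Starts are 1-based. The mm9 genome and gene annotation were not used here, so sites carry no gene names or sequences, and planned gene lists were not run. Members, lists and settings were chosen with earlier results of these data known. Sites named are the 10 highest and 5 widest 40-min-only sites, the 5 longest runs, and the 5 highest 5-min-only sites, fresh frozen sites met by 1 of the 50 °C lists, and 40-min-only sites without a fresh frozen site. Alternatives covered gap closing, overlap, value, list length and chromosomes. Interval steps were tested on simulated data. Software was matplotlib 3.10.9, pandas 2.3.3, scipy 1.17.1 and numpy 2.4.6 under Python 3.11.15.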

Additional observations from a re-analysis of the deposited data

Results flagged for a closer look

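The change from 5 to 40 min went in opposite directions at 50 °C and 65 °C in 2 measures of the lists, with gaps of up to 76 bp closed. The length covered by sites rose by 19.3 Mb at 50 °C, and at 65 °C the 40 min library minus the first and second library of 5 min gave -9.10 and -5.16 Mb. The median site width differed by 75 bp at 50 °C and by -10 and -9 bp at 65 °C. Neither difference between temperatures was tested, since all conditions but 65 °C with 5 min had 1 library.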

How the results depend on the processing

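No paired analysis was possible because only 65 °C with 5 min had numbered replicates. Of 60 values under alternatives, 41 fell outside the interval of the main value or, for the count, changed by over 1.5 times. No alternative turned the order of 40-min-only and shared sites in fresh frozen liver, the difference being 23.6 to 40.8 points. The number of 40-min-only sites was 16690 with gaps of up to 500 bp closed and 17944 with lists of equal length. Their share of the 40 min list was 52.2% with gaps of 500 bp closed, 63.1% with an overlap of 50% of the shorter site, 47.1% when a 5 min site within 500 bp counted as shared, 67.4% with −log10 q-values of at least 5 and 47.2% at equal length. In that order of settings, the share meeting fresh frozen liver was 47.2%, 33.9%, 38.8%, 44.3% and 49.4%, and 36.2% with no gap closed. For shared sites it was 87.9%, 74.8%, 62.4%, 80.5% and 79.0%, and 69.1% with no gap closed. The median width was 245 bp with no gap closed, 300 bp with 500 bp closed, 311 bp at values of at least 5 and 362 bp at equal length. The median rank percentile was 68.9% with 500 bp closed, 66.2% with the 500 bp allowance, 68.9% at equal length and 62.5% (62.45) with chromosomes X and Y. The last lay just below the main value of 62.46, which is also the lower limit of its interval. The share within 12.5 kb of a shared site was 67.4% with no gap closed, 50.3% with 500 bp closed, 59.0% with the allowance, 56.5% at values of at least 5 and 63.4% at equal length, and 51.6% lay within 5000 bp. The share met by both 65 °C, 5 min libraries was 49.3%, 44.0%, 40.1%, 42.0%, 59.8% and 64.1% with no gap closed, 500 bp closed, 50% overlap, the allowance, values of at least 5 and equal length. Leaving out either library gave 57.1% to 62.8%. Read depth is unknown, so a site missing from the 5 min list may be below detection there.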
